A study of Mus musculus with 44 samples.

Results

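The genes described here are p53 targets and growth arrest genes, in FACS-sorted cultures of mouse calvarial osteoblasts. They comprised 10 genes, namely Cdkn1a, Cdkn1b, Cdkn2a, Gadd45a, Gadd45b, Gadd45g, Mdm2, Ccng1, Btg2 and Trp53, and every probe set that named one of them as its gene was taken, whatever its level. These were 13 of 36701 probe sets and covered 9 of the 10 genes, of 15964 genes named in all. No probe set here was named for Trp53, and that gene was not analysed here. A further 2 probe sets named for its pseudogene, Trp53-ps, were not taken as members.

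Calvarial cells of 7-day-old newborn mice had been grown in DMEM with 10% foetal calf serum, and RNA had been hybridised to Affymetrix 74A, 74B and 74C arrays. The day 17 groups were GFP-positive cells, GFP-negative cells and unsorted cells of cultures carrying pOBCol2.3GFP, each from Exp100, Exp105 and Exp106, grown with ascorbic acid and beta-glycerophosphate from day 7 on. The day 7 groups were the same 3 kinds of cells from cultures carrying pOBCol3.6GFP, each from Exp99, Exp101 and Exp103, grown without additions. Both transgenes express GFP from fragments of a type I collagen promoter, the longer of which is active earlier in the osteoblast lineage, so GFP marks different cells on the 2 days. Day, transgene and additions changed together, and their parts in any difference between the days cannot be told apart. There were thus 18 RNA samples in 6 groups of 3, and only the experiment names tell replicates apart. No source says that they were separate cultures or animals, so a p-value here covers the spread of these samples, which may be technical.

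p53 is a transcription factor that is held low by Mdm2, a ubiquitin ligase that it also induces, and that is released by DNA damage and other stress. Its targets include inhibitors of the cell cycle, such as Cdkn1a (p21), and genes of DNA repair and cell death, while several growth arrest genes are also switched on without p53 when cells leave the cycle to differentiate. In mice, loss of p53 raises bone formation and loss of Mdm2 in the osteoblast lineage impairs it.

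Values are intensities normalised between arrays of 1 type, and levels of different probe sets are not compared. A difference is on the scale of log2(intensity + 32), and a probe set counts as changed where limma gave a Benjamini-Hochberg adjusted p under 0.05 over all probe sets tested. The number of samples, 3 in each group, limits the precision. Exp106 stood apart from the other experiments: its sorted samples correlated with the others at a mean r of 0.839, 0.772 and 0.770 on arrays A, B and C, against 0.943, 0.900 and 0.813 among the others. The labels of Exp106 name calvaria as the material, those of Exp99, Exp100 and Exp103 cell culture, and those of Exp101 and Exp105 both. Member calls that changed without Exp106 are therefore given with and without it, as are some other differences that moved.

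The cells' labels were set against marker genes. Of 11 osteoblast markers 6 were on array A, and their summed intensity was 323005 to 372968 in day 17 GFP-positive cells, 260850 to 278211 in day 17 GFP-negative cells, 97216 to 164710 in day 7 GFP-positive cells and 82451 to 209187 in day 7 GFP-negative cells. The 10 macrophage markers summed to 19732 to 76854 in day 17 GFP-positive cells, where Exp106 had the highest sum, and to 62623 to 102719 in day 17 GFP-negative cells and 139216 to 184459 in day 17 unsorted cells. At day 7 they summed to 5344 to 6016 in GFP-positive, 11989 to 31409 in GFP-negative and 16877 to 35010 in unsorted cells. The fibroblast and progenitor markers, 6 of 8 on array A, summed to 88213 to 116864 in day 17 GFP-positive cells and 141298 to 200844 in day 17 GFP-negative cells. The 8 skeletal muscle markers summed to 5205 to 5917 in day 17 GFP-positive cells, 6209 to 7129 in day 17 GFP-negative cells, 7327 to 9973 in day 7 GFP-positive cells and 12329 to 19670 in day 7 GFP-negative cells, with at most 2 of them at the lowest deposited value on an array. None of the 6 endothelial markers was bright enough to be tested, and no macrophage, osteoblast or fibroblast marker lay at the lowest deposited value. In such mixed RNA, fewer cells of a type and less RNA per cell cannot be told apart.

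The differences came from 3 of the 9 genes. Cdkn1a was higher in GFP-positive than in GFP-negative cells at day 17, Gadd45a was lower at day 17 than at day 7 in unsorted cells and the GFP-positive fraction, and Ccng1 was lower at day 17 than at day 7 in unsorted cells. The stretch upstream of the start of each of these 3 genes is shown first, because all of them are known targets of p53 and each stretch holds a match to the p53 half-site, in capitals. Each is the 250 bases before the annotated start, 5′ to 3′ on the gene's strand, from the RefSeq promoter table of GRCm38.p6. The Cdkn1a sequence is that of the more upstream of 2 annotated starts, at chr17:29090729-29090978 on the plus strand. The promoter of its other start, not shown, held 0 half-sites. The Gadd45a sequence lies at chr6:67037408-67037657 and that of Ccng1 at chr11:40755287-40755536, both on the minus strand.
Cdkn1a: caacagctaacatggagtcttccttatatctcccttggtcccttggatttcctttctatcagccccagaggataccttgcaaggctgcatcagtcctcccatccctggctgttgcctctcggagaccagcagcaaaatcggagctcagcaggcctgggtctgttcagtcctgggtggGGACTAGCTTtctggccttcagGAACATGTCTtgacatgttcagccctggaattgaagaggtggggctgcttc
Gadd45a: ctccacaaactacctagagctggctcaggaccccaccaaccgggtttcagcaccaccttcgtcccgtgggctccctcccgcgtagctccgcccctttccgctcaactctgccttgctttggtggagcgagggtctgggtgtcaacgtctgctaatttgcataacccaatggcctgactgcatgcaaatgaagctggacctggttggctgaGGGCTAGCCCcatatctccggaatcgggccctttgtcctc
Ccng1: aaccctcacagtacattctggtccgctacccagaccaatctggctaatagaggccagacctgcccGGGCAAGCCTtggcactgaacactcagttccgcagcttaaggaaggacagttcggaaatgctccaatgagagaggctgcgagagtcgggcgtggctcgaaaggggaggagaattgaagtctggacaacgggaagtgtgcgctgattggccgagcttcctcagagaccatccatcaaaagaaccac

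Counted back from the start, the Cdkn1a stretch held GGACTAGCTT at -73 to -64 and GAACATGTCT at -51 to -42. Gadd45a held GGGCTAGCCC at -40 to -31 and Ccng1 held GGGCAAGCCT at -185 to -176. All 10 genes, Trp53 included, matched the table by symbol with 12 promoters, taken as the 250 bases before and 50 after the start, and 5 of the 12 held a half-site on either strand, the other two being those of Mdm2 and Trp53. Of all 32851 promoters there 8.36% held one. A pair of half-sites at most 13 bases apart was found in 1 of the 12, the upstream Cdkn1a promoter, against 0.0731% of all promoters. The box GGGCGG stood in 8 of the 12 against 35.7% of all, CCAAT in 9 against 37.4% and TATAAA in 3 against 13.6%, searched on both strands. Only exact matches to the half-site pattern were searched, so a stretch that departs from it at any base is neither in capitals nor counted. A match describes these letters and is no evidence of binding, which was not measured here.

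Cdkn1a encodes p21, which binds and inhibits cyclin-dependent kinases and is the best known target of p53 in cell cycle arrest. With probe set 94881_at, day 17 GFP-positive cells had intensities of 5654, 4455 and 5152 in Exp100, Exp105 and Exp106, against 1708, 2209 and 1995 in day 17 GFP-negative cells. The unsorted cells of the same 3 experiments had 2418, 3464 and 3618, and lay between the 2 fractions in 3 of 3 experiments. The 3 groups of day 17 therefore did not overlap, and the 3 GFP-negative samples were the lowest of all 18.

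At day 7 the fractions were not separated in that way. Day 7 GFP-positive cells had 4934, 3967 and 2842 in Exp99, Exp101 and Exp103, against 4706, 3323 and 3154 in day 7 GFP-negative cells. Unsorted day 7 cells had 5412, 3274 and 3036. The 3 groups of day 7 covered the same range, and the day 17 GFP-positive samples lay within the upper part of it or just above.

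**Figure D1:**
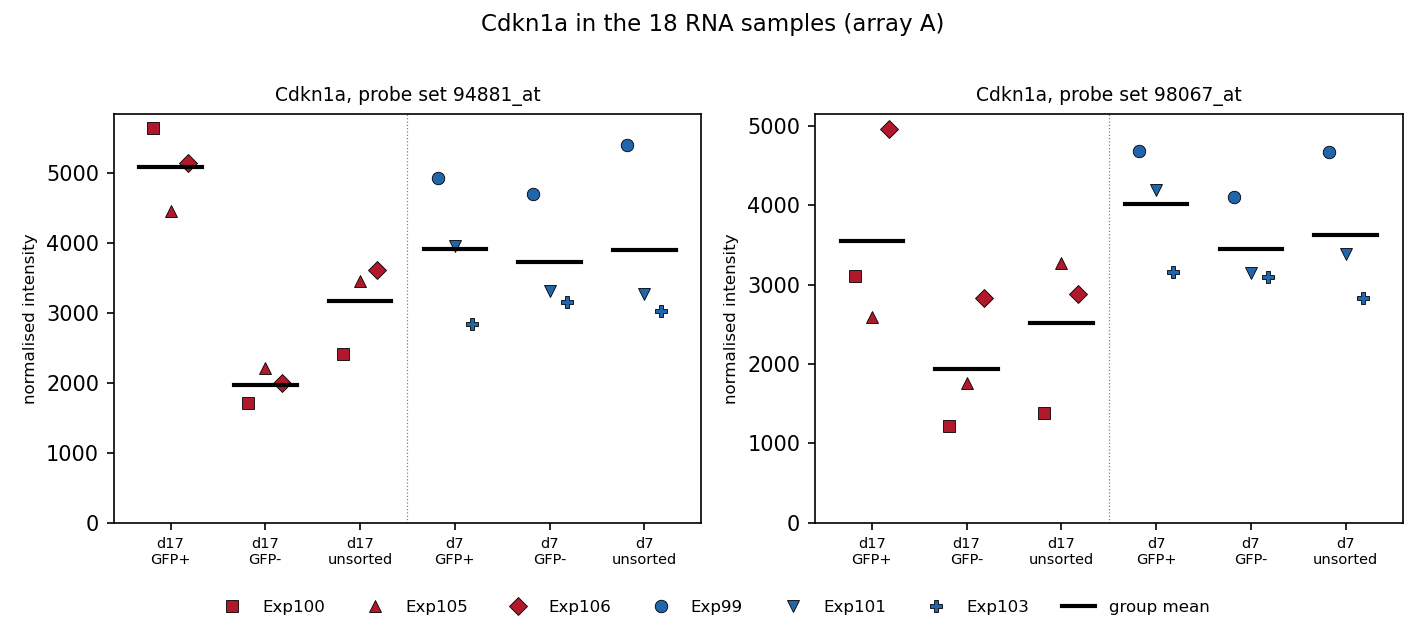
Normalised intensity of the Cdkn1a probe sets in each of the 6 groups, 1 symbol per experiment and a bar at the group mean of 3 samples. With 94881_at the day 17 GFP-positive samples lie between 4455 and 5654 and the day 17 GFP-negative samples between 1708 and 2209, while the day 7 groups overlap.

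The mean was 5087 ± 602 in day 17 GFP-positive cells and 1971 ± 251 in day 17 GFP-negative cells (SD, n = 3 each). The log2 difference was 1.36 ± 0.26 (SE; 95% interval 0.79 to 1.92), a 2.56-fold higher level, with a limma adjusted p of 0.0248. It was 1.71, 1.0 and 1.36 within Exp100, Exp105 and Exp106. This was the 1 call among the 11 tested probe sets of these genes, where 1.29% of all 22099 were called in either direction and 0.29% as higher. It held without Exp106 (1.36, adjusted p = 0.042) and was lost with intensities as deposited (1.198, adjusted p = 0.0644), in a fit of only the groups compared (1.36, adjusted p = 0.14), and without the day 17 GFP-negative sample of Exp100 (1.26, 0.125) or Exp105 (1.44, 0.0587) or the GFP-positive sample of Exp100 (1.27, 0.0963) or Exp105 (1.44, 0.0558); over all 24 alternatives the limma adjusted p was 0.00217 to 0.14.

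The second Cdkn1a probe set, 98067_at, was also higher in the GFP-positive than in the GFP-negative fraction of every day 17 experiment, with a wider spread. Its intensities were 3105, 2586 and 4962 in day 17 GFP-positive cells, against 1224, 1758 and 2830 in day 17 GFP-negative cells, so that the groups overlapped. The day 17 unsorted cells had 1384, 3274 and 2881, and that of Exp105 lay above both of its fractions. The log2 difference of 0.89 ± 0.34 had a limma adjusted p of 0.328, and by experiment it was 1.32, 0.55 and 0.80.

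In the day 7 pair the Cdkn1a difference with 94881_at was 0.06 ± 0.26 (95% interval -0.50 to 0.62; limma adjusted p = 1), and within Exp99, Exp101 and Exp103 it was 0.07, 0.25 and -0.15. The GFP-positive minus GFP-negative difference was 1.30 ± 0.36 larger at day 17 than at day 7, but the limma adjusted p of that change was 0.34, and the 2 days are not shown to differ. Between the days, Cdkn1a was 0.40 ± 0.26 in GFP-positive cells, -0.89 ± 0.26 in GFP-negative cells and -0.27 ± 0.27 in unsorted cells, as day 17 minus day 7 on the log2 scale, with limma adjusted p of 0.431, 0.203 and 0.536. With 98067_at the difference in GFP-negative cells was -0.89 ± 0.34 (limma adjusted p = 0.344), and it passed without Exp106 (-1.21, adjusted p = 0.0436; 0.0436 to 0.644 over 22 alternatives).

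Of the macrophage, fibroblast and osteoblast markers, only some fibroblast and progenitor markers passed in the same day 17 contrast. Of the 7 fibroblast and progenitor markers tested 3 were lower in day 17 GFP-positive than in day 17 GFP-negative cells, while 0 of 10 macrophage markers passed in limma (6 at an unadjusted p under 0.05, median log2 difference -1.52), as did 0 of 5 osteoblast markers (2 at such a p, median 0.63). Between the day 7 fractions, where the Cdkn1a difference was 0.06, 0 of 10 macrophage markers passed in limma. There 7 had an unadjusted p under 0.05, with a median log2 difference of -2.52. The part of these cells in the Cdkn1a difference was not tested.

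Among other cell cycle inhibitors, Cdkn2a, the gene of p16 and of p19ARF, which restrains Mdm2, was dim to moderate, above its array's median on 14 of 18 arrays. Its probe set had 1130, 970 and 601 in day 17 GFP-positive cells, against 641, 681 and 856 in day 17 GFP-negative cells and 525, 732 and 798 in day 7 GFP-positive cells. The groups overlapped throughout, and the highest sample of the 18 was the day 17 unsorted sample of Exp106, at 1518. The day 17 GFP-positive minus GFP-negative difference was 0.26 ± 0.35 (limma adjusted p = 0.903), and 0.65 without Exp106. Cdkn1b, the inhibitor p27, lay below the array median on 18 of 18 arrays with both of its probe sets, at 53.03 to 322.7 and 54.1 to 305.5, and was not tested.

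Gadd45a, a stress sensor that promotes growth arrest and DNA repair and is induced through p53 as well as without it, separated the 2 days in every kind of cell. Its level exceeded the array median on 16 of 18 arrays, and on 1 of 3 for day 17 GFP-positive cells. Its intensities were 250, 396 and 1545 in day 17 GFP-positive cells of Exp100, Exp105 and Exp106, against 5198, 5352 and 5079 in day 7 GFP-positive cells of Exp99, Exp101 and Exp103. They were 1323, 1292 and 2640 in day 17 GFP-negative cells, against 4124, 9067 and 3742 in day 7 GFP-negative cells. Day 17 unsorted cells had 1063, 1664 and 1553, against 8030, 4438 and 6382 in day 7 unsorted cells. All 9 day 17 samples were lower than all 9 day 7 samples, and the lowest 2 were GFP-positive cells of day 17.

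In GFP-positive cells the mean was 730 ± 709 at day 17 and 5210 ± 137 at day 7 (SD, n = 3 each). The log2 difference was -3.19 ± 0.56 (95% interval -4.41 to -1.96), a level 0.110 times that of day 7, with a limma adjusted p of 0.00723. It was the 1 call among 11 probe sets of these genes, where 4.82% of all were called, and 3.17% as lower. It was called under 22 of 22 alternatives, with adjusted p of 0.000306 to 0.0454, and without Exp106 the difference was -3.97.

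In unsorted cells the mean was 1427 ± 320 at day 17 and 6283 ± 1798 at day 7 (SD, n = 3 each), and the log2 difference was -2.10 ± 0.51 (limma adjusted p = 0.0254). That call was made in 22 of 27 alternatives, with adjusted p of 0.00142 to 0.102. It was lost with intensities as deposited (-1.96, 0.0582) and without the day 17 unsorted sample of Exp100 (-1.91, 0.0798) or Exp106 (-2.17, 0.0624) or the day 7 unsorted sample of Exp99 (-1.90, 0.102) or Exp103 (-2.06, 0.0934).

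In GFP-negative cells the mean was 1752 ± 770 at day 17 and 5645 ± 2970 at day 7, and the log2 difference of -1.63 ± 0.56 did not pass (limma adjusted p = 0.295). Without Exp106 it was -1.97 (adjusted p = 0.0302; range over 22 alternatives 0.0302 to 0.633). All 10 macrophage markers were tested, and 6 were higher at day 17 than at day 7 in GFP-positive cells, 0 in GFP-negative cells (limma; 7 at an unadjusted p under 0.05) and 8 in unsorted cells, as were 3, 2 and 3 of 5 osteoblast markers. Of 5 skeletal muscle markers tested, 0 were lower at day 17 in GFP-positive cells (limma; 1 at an unadjusted p under 0.05), 1 in GFP-negative cells and 3 in unsorted cells, where their summed median was 6742 at day 17 and 14473 at day 7. Fibroblast and progenitor markers were lower at day 17 for 2 of 7 in GFP-positive cells, and higher for 3 of 7 in GFP-negative and 2 of 6 in unsorted cells. The part of changing cell mixture in the Gadd45a difference was not tested.

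Within day 17, Gadd45a was lower in GFP-positive than in GFP-negative cells of every experiment, by -2.27, -1.63 and -0.76 on the log2 scale in Exp100, Exp105 and Exp106. The fitted difference was -1.55 ± 0.56 (limma adjusted p = 0.294). It passed without Exp106 (-1.995, adjusted p = 0.0259, or 0.0358 with experiment also as a block) and without only its GFP-positive sample (-2.29, adjusted p = 0.0154). Over 24 alternatives the adjusted p was 0.0154 to 0.737. The GFP-positive sample of Exp106 also had the highest summed macrophage markers among day 17 GFP-positive cells. Among day 17 GFP-negative cells, the Exp106 sample had the highest Gadd45a, 2640, and the lowest macrophage sum, 62623. The part of these cells was not tested. At day 7 the difference was 0.00 ± 0.56 with experiments on both sides (0.33, -0.76 and 0.44), and the change between the days, -1.56 ± 0.79, had a limma adjusted p of 0.922.

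**Figure D2:**
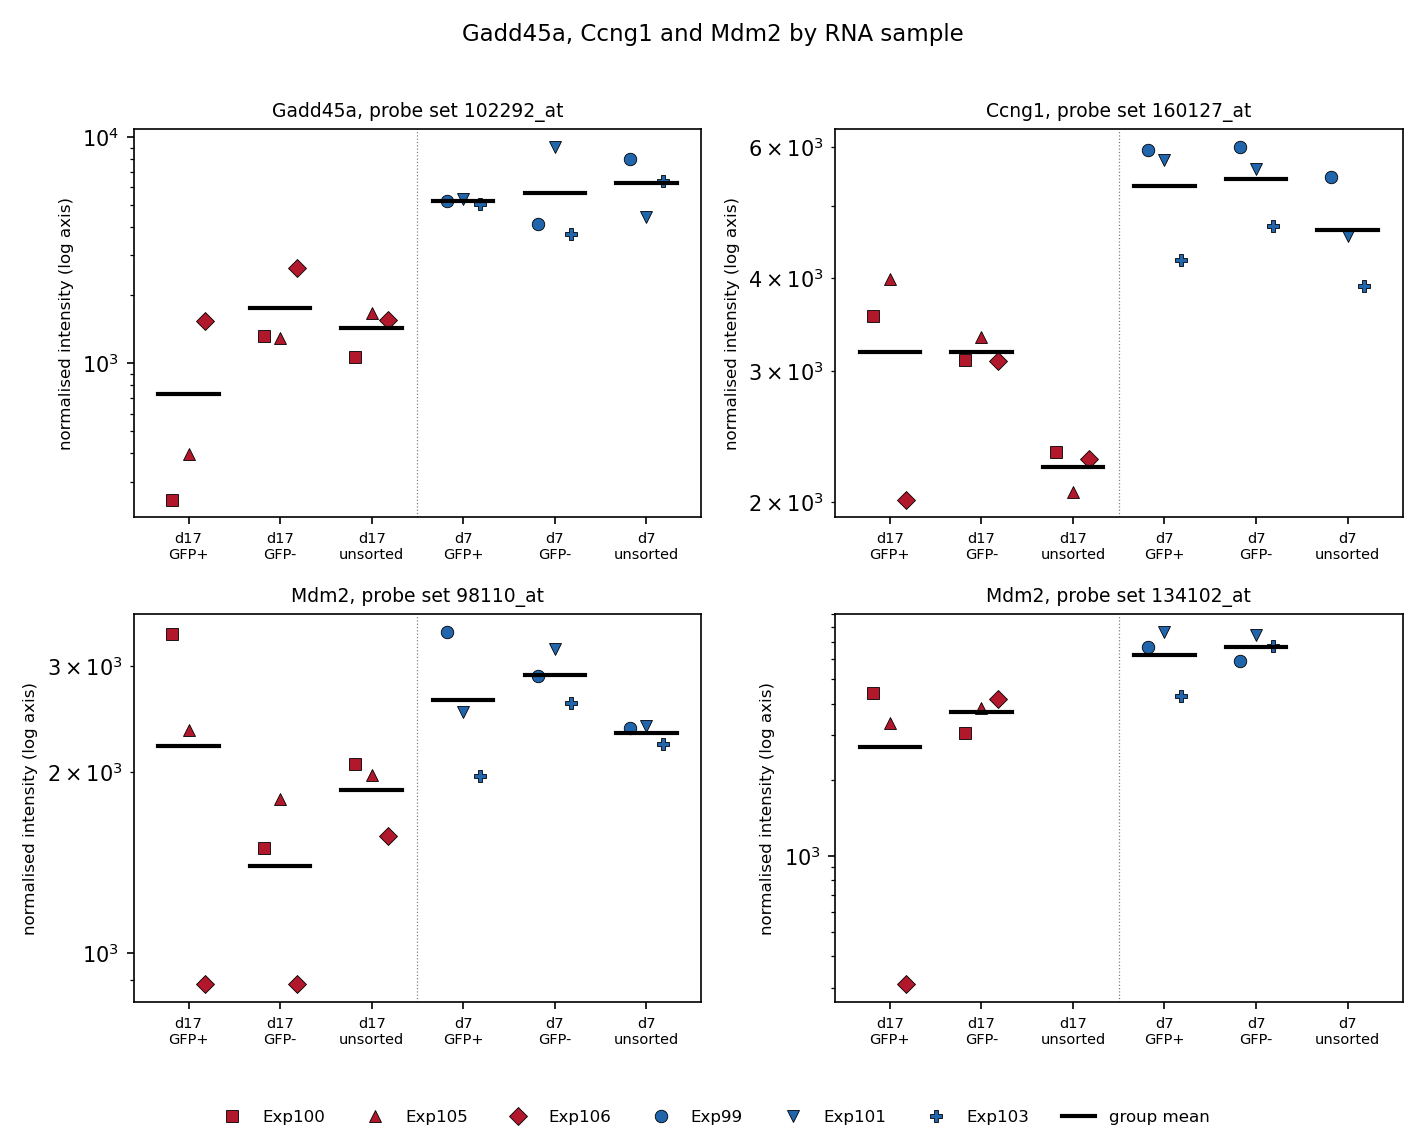
Normalised intensity on a log axis of Gadd45a, Ccng1 and the Mdm2 probe sets in each group, 1 symbol per experiment and a bar at the group mean of 3 samples. Every Gadd45a sample of day 17 lies below every sample of day 7. With 134102_at 1 Mdm2 sample, the day 17 GFP-positive one of Exp106, lies far below the others, and no unsorted sample is shown.

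The related genes did not share that pattern. Gadd45b, induced by TGF-beta and stress signals, had 1272, 1918 and 679 in day 17 GFP-positive cells, against 1040, 2116 and 227 in day 17 GFP-negative cells and 1110, 1051 and 826 in day 7 GFP-positive cells with probe set 102779_at. Its other probe set, 161666_f_at, whose suffix marks probes shared within a family, had 2085, 1985 and 791 in day 17 GFP-positive cells, against 1373, 1173 and 757 in day 17 GFP-negative cells. In both, the Exp106 samples were the lowest of their day 17 groups and the groups overlapped.

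Gadd45g, a family member known for its induction in differentiating cells, had 5447, 6731 and 1561 in day 17 GFP-positive cells, against 3924, 4567 and 1532 in day 17 GFP-negative cells. In day 7 cells it had 3729, 4318 and 4007 when GFP-positive and 3873, 4452 and 2471 when GFP-negative. The 3 day 17 samples of Exp106, at 1264 to 1561, were the lowest of the 18. In GFP-positive cells the Gadd45g difference between the days was -0.05 ± 0.52 (limma adjusted p = 0.967), and 0.58 without Exp106. Neither gene passed in any of the 8 comparisons; for 102779_at the mean of the sorted fractions minus unsorted cells at day 17 was 0.31 ± 0.48 (limma adjusted p = 0.864), and it passed in 1 of 28 alternatives, with experiment as a fixed block and without Exp106 (0.79, adjusted p = 0.0212).

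Ccng1, cyclin G1, a p53 target that recruits a phosphatase to Mdm2, was lower at day 17 in unsorted cells. Its intensities were 2334, 2063 and 2288 in day 17 unsorted cells, against 5474, 4562 and 3908 in day 7 unsorted cells. The groups did not overlap, with means of 2229 ± 145 at day 17 and 4648 ± 786 at day 7 (SD, n = 3 each), and the log2 difference was -1.04 ± 0.24, a level 0.487 times that of day 7 (limma adjusted p = 0.0186). Ccng1 and Gadd45a were the 2 calls among 10 probe sets of these genes on array A, where 5.71% of 7455 were called, and 2.67% as lower.

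The Ccng1 call was made in 25 of 27 alternatives, with adjusted p of 0.00258 to 0.0891, and it was lost without the day 7 unsorted sample of Exp99 (-0.91, 0.0891) or Exp101 (-1.05, 0.0607). In sorted cells the same direction was seen without passing. Day 17 GFP-positive cells had 3554, 3987 and 2017, against 5948, 5764 and 4230 in day 7 GFP-positive cells, and the log2 difference was -0.77 ± 0.27 (limma adjusted p = 0.132). Without Exp106 it was -0.47 (limma adjusted p = 0.156). Day 17 GFP-negative cells had 3106, 3337 and 3100, against 6003, 5609 and 4706 in day 7 GFP-negative cells, and the difference was -0.76 ± 0.27 (limma adjusted p = 0.307). Neither pair overlapped, and the samples of the day 17 fractions were lower than those of day 7 throughout.

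Within a day, the Ccng1 means of the fractions lay within the spread of the samples. At day 17 they were 3186 ± 1035 for the GFP-positive and 3181 ± 135 for the GFP-negative fraction, and at day 7 they were 5314 ± 944 for the GFP-positive and 5439 ± 665 for the GFP-negative fraction (SD, n = 3 each). At day 17 the sorted fractions stood 0.48 ± 0.20 above unsorted cells on the log2 scale (limma adjusted p = 0.283). That difference passed in 3 of 29 alternatives, without Exp106 (0.67, adjusted p = 0.0331), without only its GFP-positive sample (0.63, 0.0312), and with experiment as a block and without Exp106 (0.67, 0.00951); the adjusted p ran up to 0.66. Here 0 of 10 probe sets of these genes were called in limma and 1 had an unadjusted p under 0.05, where 1.60% of all were called.

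Btg2, an antiproliferative gene that p53 induces, showed no call in any comparison. It had 3048, 3016 and 6522 in day 17 GFP-positive cells, against 3558, 3112 and 7125 in day 17 GFP-negative cells, and 3231, 4295 and 3054 in day 7 GFP-positive cells. The 3 day 17 samples of Exp106, at 5442 to 7125, were the highest of the 18, so that Exp106 set the spread of this gene as it did that of Gadd45g in the other direction. In GFP-positive cells the Btg2 difference between the days was 0.17 ± 0.37 (limma adjusted p = 0.842), and -0.20 without Exp106.

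**Figure D3:**
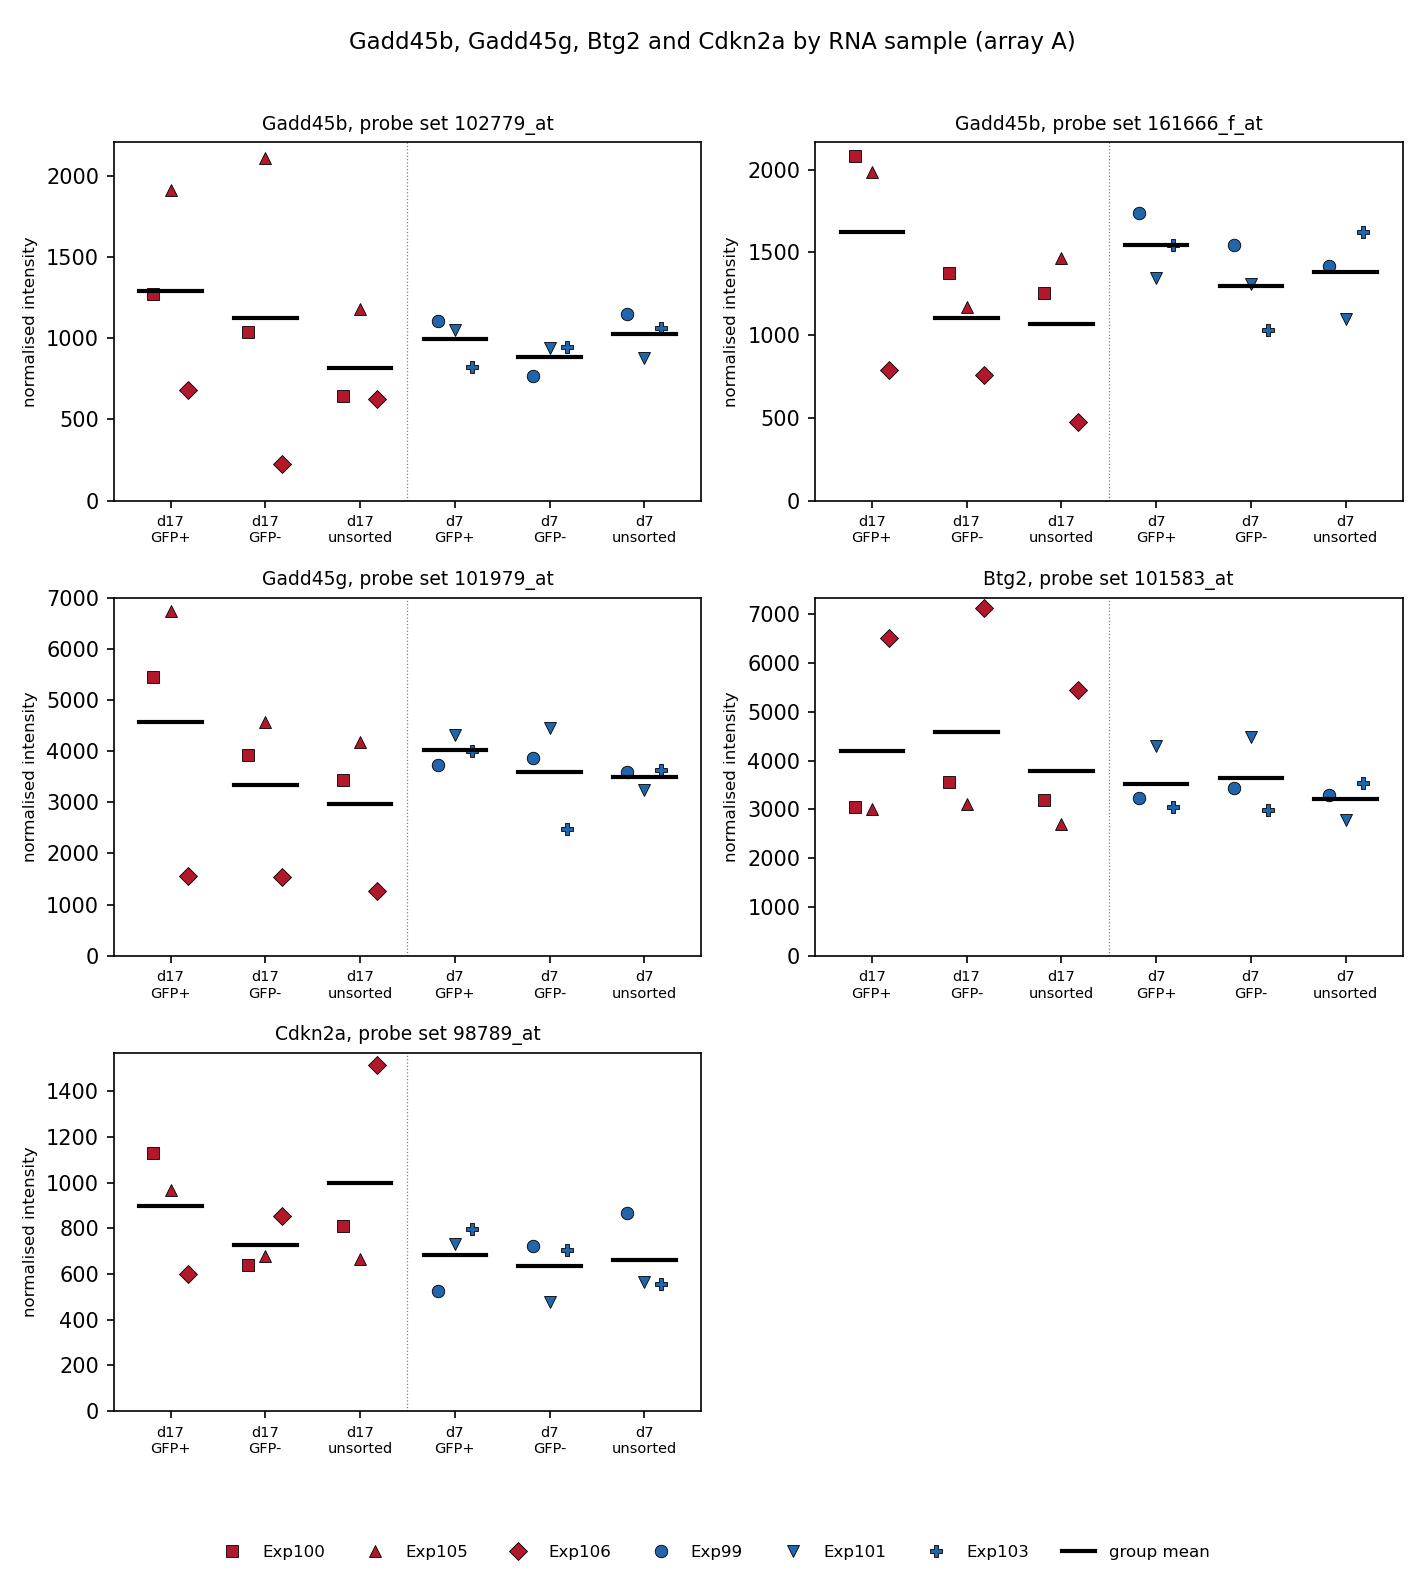
Normalised intensity of Gadd45b, Gadd45g, Btg2 and Cdkn2a in each group, 1 symbol per experiment and a bar at the group mean of 3 samples. The day 17 diamonds of Exp106 lie lowest for Gadd45g, at 1264 to 1561, and highest for Btg2, at 5442 to 7125.

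Mdm2, the ubiquitin ligase that restrains p53 and is itself a p53 target, was measured by 2 probe sets that disagreed in Exp106. With 98110_at the intensities were 3401, 2347 and 886 in day 17 GFP-positive cells, against 1493, 1803 and 888 in day 17 GFP-negative cells. Day 7 GFP-positive cells had 3426, 2516 and 1967, and day 7 GFP-negative cells 2893, 3211 and 2606. The day 17 GFP-negative samples were all lower than the day 7 GFP-negative samples, with a log2 difference of -1.09 ± 0.44 that did not pass (limma adjusted p = 0.385). Day 17 unsorted cells had 2062, 1980 and 1562, against 2365, 2385 and 2225 in day 7 unsorted cells, again with every day 17 sample lower, while the GFP-positive groups of the 2 days overlapped.

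With 134102_at, on array C, day 17 GFP-positive cells had 4392, 3352 and 310, against 3052, 3843 and 4185 in day 17 GFP-negative cells. Day 7 GFP-positive cells had 6707, 7685 and 4266, and day 7 GFP-negative cells 5901, 7477 and 6782. The value of 310 is the GFP-positive sample of Exp106, and it decided the sign: the day 17 GFP-positive minus GFP-negative difference was -1.10 ± 0.72 with it (limma adjusted p = 0.693) and 0.16 without Exp106. With 98110_at the same difference was 0.51 ± 0.44 (limma adjusted p = 0.808) and by experiment 1.17, 0.37 and 0.00. The only unsorted sample measured with 134102_at was that of Exp106, which entered no fit. Its deposited intensity was 3618, against 242 in the GFP-positive and 3982 in the GFP-negative sample of Exp106.

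Between the days, the Mdm2 difference in GFP-positive cells was -0.41 ± 0.44 with 98110_at (limma adjusted p = 0.651), turning to 0.14 without Exp106, and -1.82 ± 0.72 with 134102_at (limma adjusted p = 0.191), or -0.63 without Exp106. In GFP-negative cells 134102_at gave -0.86 ± 0.72 (limma adjusted p = 0.701), and in unsorted cells 98110_at gave -0.32 ± 0.38 (limma adjusted p = 0.61). No direction is drawn for Mdm2 in GFP-positive cells.

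**Figure D4:**
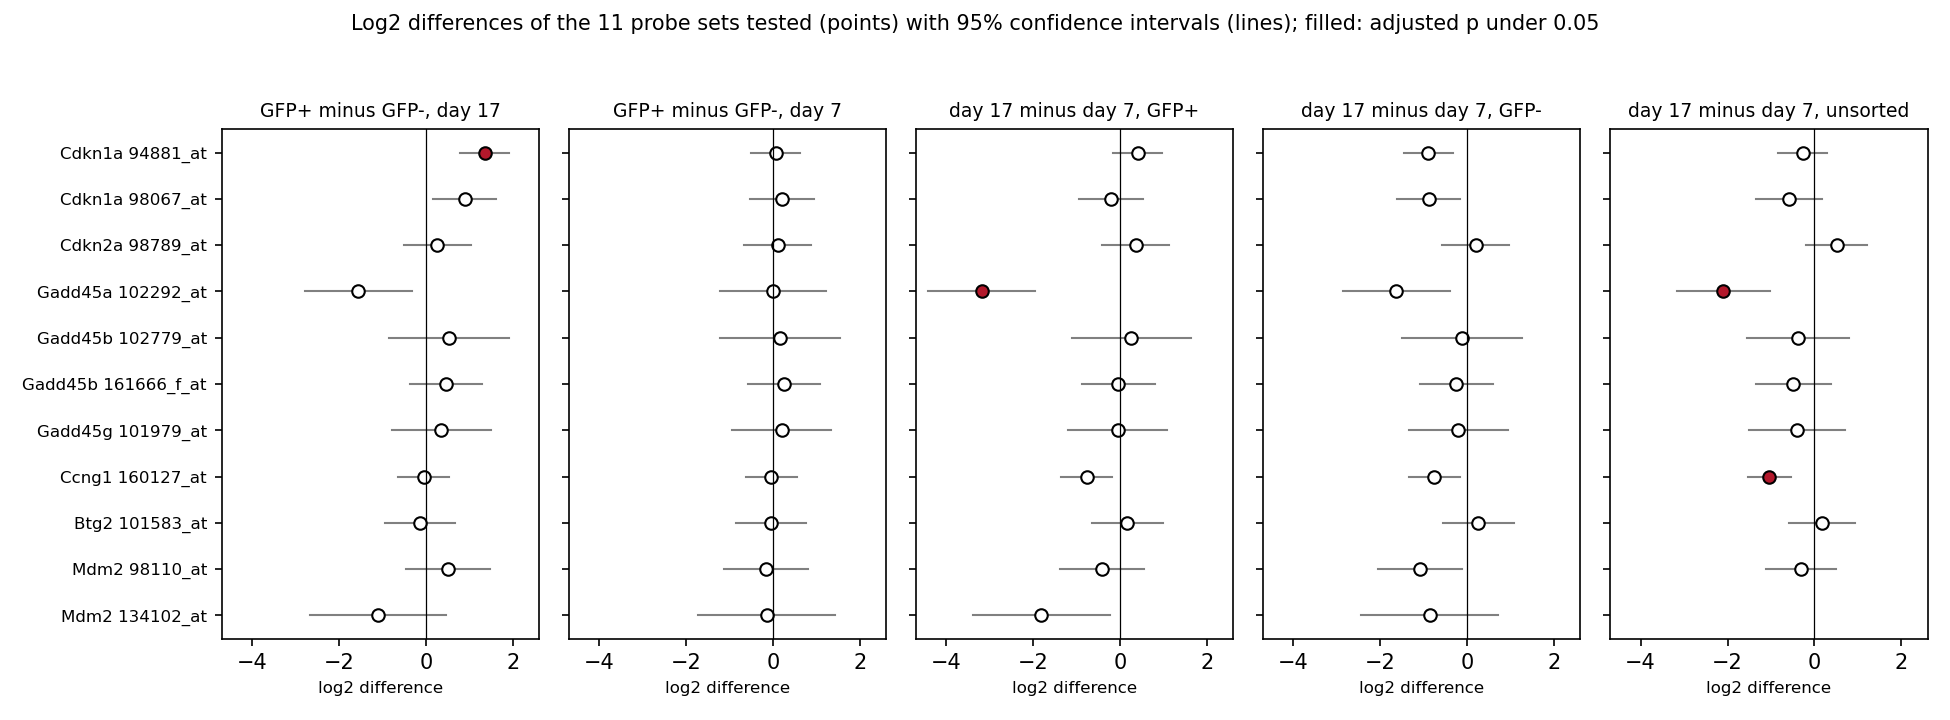
Fitted log2 differences with 95% intervals for the 11 tested probe sets in 5 comparisons, with filled symbols where the limma adjusted p was under 0.05. Filled symbols stand for Cdkn1a (94881_at) in GFP-positive minus GFP-negative cells at day 17, for Gadd45a at day 17 minus day 7 in GFP-positive and in unsorted cells, and for Ccng1 in unsorted cells.

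Across the 11 probe sets tested, the day 17 GFP-positive minus GFP-negative differences ran from -1.55 to 1.36 with a median of 0.35, against a median of -0.01 over all probe sets. At day 7 they ran from -0.17 to 0.26 with a median of 0.06. In that day 7 comparison limma called 0 of the 11, and 0 had an unadjusted p under 0.05, while 0% of all 22099 were called and 395 had such a p. The change of the GFP difference between the days was called for 0 of 11 in limma, with 1 at an unadjusted p under 0.05, where 0.222% of all were called.

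For day 17 minus day 7 the median over these probe sets was -0.05 in GFP-positive cells, -0.76 in GFP-negative cells and -0.39 in unsorted cells, against -0.06, -0.04 and -0.09 over all. In GFP-negative cells 9 of 11 probe sets had a negative difference and 5 had an unadjusted p under 0.05, those of Gadd45a, Ccng1, Mdm2 (98110_at) and both of Cdkn1a, where 2442 of all 22099 had such a p. Limma called 0 of the 11, where 0.434% of all 22099 were called. Without Exp106 it called 2, Gadd45a and Cdkn1a with 98067_at, and 387 of 21115 in all. Sorted minus unsorted cells at day 7 gave 0 calls in limma among 10, with 0 at an unadjusted p under 0.05, where 0% of all 7455 were called.

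The genes whose profile over the 12 sorted samples was most like that of the called members are given as a description, from 6294 probe sets of array A that share the samples' scaling. For Cdkn1a they were Edem1, Aup1 and Reep5, with Pearson r of 0.867, 0.828 and 0.828, against 0.775 for its own second probe set. For Gadd45a they were Spg21, Ifi202b and Ifi204, with r of 0.959, 0.956 and 0.954. For Ccng1 they were Ccnc, Clpp and Gipc1, with r of 0.946, 0.944 and 0.938.

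Other targets of p53 were taken from a list of 27 genes, of which 23 had a probe set and 17 were tested. At day 17, GFP-positive cells were lower than at day 7 for 6 of the 17 and higher for 1, with 10 not passing, where 3.17% of all 22099 were called lower and 4.82% either way. The median was -0.81 against -0.06 over all. The list was chosen with earlier results of these data known, so these counts are only a description. Plk2, a stress-induced kinase, averaged 1458 ± 439 in day 17 GFP-positive cells and 7780 ± 1594 in day 7 GFP-positive cells (SD, n = 3 each; log2 difference -2.41 ± 0.33, limma adjusted p = 0.0016). Sesn2, a stress protein that restrains mTORC1, averaged 1515 ± 748 in day 17 GFP-positive cells and 6068 ± 850 in day 7 GFP-positive cells (-2.09 ± 0.36, limma adjusted p = 0.00647).

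Perp, a membrane protein that p53 induces, averaged 29.2 ± 11.2 in day 17 GFP-positive cells and 604 ± 165 in day 7 GFP-positive cells (SD, n = 3 each). Its level exceeded the array median in 0 of 9 day 17 samples and 8 of 9 day 7 samples, and so entered the fits only through the day on which it was high. It is counted among the 6, which are 5 without it, and its call is not used. The calls of Plk2, Sesn2 and Trp53inp1 held with each of the 12 sorted samples left out in turn. The remaining lower genes, from -1.55 to -1.01, were Trp53inp1, Zmat3 and Phlda3, named here after their values were seen. Zmat3 was called in 16 of 22 alternatives (limma adjusted p 0.0144 to 0.139) and Phlda3 in 14 of 22 (0.0115 to 0.145). With Exp106 left out 6 were lower, and 3 in a fit of only the groups compared.

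The member of this list that moved the other way was Pmaip1, which encodes Noxa, a trigger of cell death. It averaged 3615 ± 1225 in day 17 GFP-positive cells and 564 ± 139 in day 17 GFP-negative cells (SD, n = 3 each; log2 difference 2.58 ± 0.33, limma adjusted p = 0.00219), and this was the list's 1 call between the day 17 fractions (with experiment as a fixed block 2 others were lower, and as a random block 1). Pmaip1 was above the array median in 0 of 3 day 17 GFP-negative samples but in all 6 sorted samples of day 7. The day 17 call was made in 23 of 24 alternatives (adjusted p 0.000219 to 0.068). Against day 7 GFP-positive cells, at 1310 ± 233, the difference was 1.40 ± 0.33 (limma adjusted p = 0.0307), called in 15 of 22 alternatives (adjusted p 0.00852 to 0.114) and lost without the day 17 GFP-positive sample of Exp100 or Exp105, the day 7 GFP-negative sample of Exp99 or any 1 of the day 7 GFP-positive samples.

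**Figure D5:**
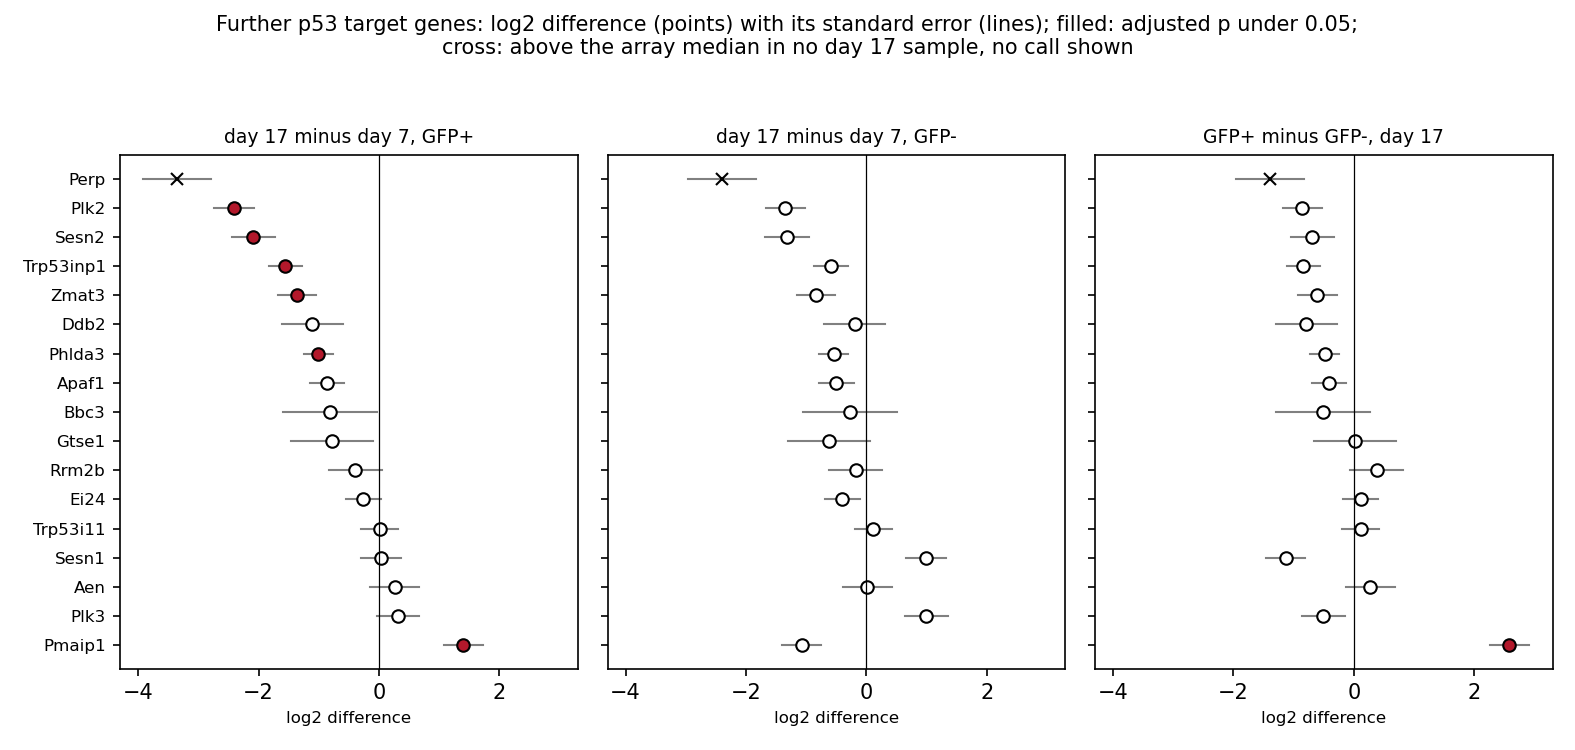
Fitted log2 differences (± SE) of the 17 tested further p53 targets for day 17 minus day 7 in each sorted fraction and for GFP-positive minus GFP-negative cells at day 17. A cross marks Perp, which lay above the array median in 0 of 9 day 17 samples and whose call is not shown. In the first of these Plk2 and Sesn2 are called lower, at -2.41 and -2.09, and Pmaip1 is the 1 gene called higher, in the first and the last.

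In GFP-negative cells 0 of the 17 passed in limma between the days (8 at an unadjusted p under 0.05, median -0.50), and without Exp106 1 was lower. Of all 22099 probe sets 0.434% were called there, and 2442 had such an unadjusted p. In unsorted cells 2 of 10 passed as lower at day 17, where 2.67% of all 7455 were called lower. With intensities as deposited or in a fit of only the groups compared 0 passed. Of the 2, Perp also lay below the array median in its day 17 unsorted samples, which leaves 1 without it. The other was Plk2 (-1.42 ± 0.38, limma adjusted p = 0.0378), called in 18 of 27 alternatives (adjusted p 0.00086 to 0.152). It was lost as deposited (0.0964) and without the day 17 unsorted sample of Exp100 or Exp105, the day 7 GFP-positive sample of Exp103 or any 1 of the day 7 unsorted samples. A list of 21 genes held those that act upstream of p53, such as its kinases and acetylases, and relatives of p53. Of these, 14 were tested in sorted cells and 10 on array A. Limma called 0 in any of the 8 comparisons, where 0% to 5.71% of all probe sets were called. At most 2 had an unadjusted p under 0.05, in GFP-positive cells between the days, where 4207 of all 22099 did. Between the days in GFP-positive cells 1 of the list was lower with a random block, as deposited or without Exp106. Without Exp106 1 was also higher there, and 1 in unsorted cells.

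A further list held 24 other CDK inhibitors, pocket proteins and quiescence genes, of which 21 were tested. Between the day 17 fractions 1 was higher and 1 lower, where 1.29% of all were called; with experiment as a random block 3 were higher and 2 lower, and as a fixed block 2 and 2. Klf4, a factor that induces Cdkn1a, averaged 6248 ± 1283 in day 17 GFP-positive cells and 1986 ± 668 in day 17 GFP-negative cells (SD, n = 3 each; log2 difference 1.67 ± 0.30, limma adjusted p = 0.0174). Gas1, a growth arrest gene of quiescent fibroblasts, averaged 1495 ± 84 in day 17 GFP-positive cells and 5579 ± 694 in day 17 GFP-negative cells (-1.87 ± 0.25, limma adjusted p = 0.003). The Klf4 call was lost without the GFP-positive or the GFP-negative day 17 sample of Exp100 or Exp105, with a limma adjusted p of at most 0.159 over its alternatives.

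Between the days, 4 of the 21 were lower and 1 higher at day 17 in GFP-positive cells, where 3.17% of all were called lower and 4.82% either way. The lower ones were Gas2 (-1.85 ± 0.30, limma adjusted p = 0.00427), which lay below the array median in all 3 day 17 GFP-positive samples, Gas1 (-1.80 ± 0.25, limma adjusted p = 0.00193), Cdkn2b, the inhibitor p15 (-1.38 ± 0.23, limma adjusted p = 0.00535), and Klf6 (-1.36). Tob1, an antiproliferative relative of Btg2, was the higher one (1.34), named like Klf6 after its values were seen. It was lost without any 1 of the day 7 GFP-positive samples. Between the days, 0 of 21 passed in limma in GFP-negative cells and 0 of 19 in unsorted cells, with 3 at an unadjusted p under 0.05 in each. Of all probe sets 0.434% were called in GFP-negative cells and 5.71% in unsorted cells. There 2442 of 22099 and 1616 of 7455 had such an unadjusted p.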

How the data were processed

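RNA of 18 samples had been measured on arrays of 3 types (44 arrays), and the unsorted RNA of Exp106 on arrays B and C entered no fit. The deposited values were linear intensities of whole probe sets, with a lowest value of 10. What the authors did to summarise or scale these intensities was not given in the sources used here. Trimmed means of the deposited intensities ran from 1069 to 1766 on A, 1367 to 1723 on B and 1259 to 1606 on C, so log2 of the deposited intensity plus 32 was quantile-normalised within each array type.

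Probe sets above the array median on at least 3 arrays of a fit were tested with limma 3.58.1 (statmod 1.5.0) in R 4.3.3, with lmFit and eBayes with a variance trend. The 12 sorted samples gave 22099 probe sets and the 18 samples on array A gave 7455. The 8 comparisons were GFP-positive against GFP-negative cells on each day, the change of that difference, day 17 against day 7 in each kind of cell, and sorted against unsorted cells on each day. p-values were Benjamini-Hochberg adjusted over all probe sets tested. The procedure was tested on simulated data with independent noise in every sample. They held no correlation within an experiment, so that test does not cover such correlation in these data.

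All 10 members were named with every probe set. From each further list at most the 3 largest changes that passed were named, with exceptions marked, and each gene was represented by 1 probe set, taken from array A where possible, otherwise B or C, choosing the brightest. The members and lists were chosen with earlier results of these data known. Fractions of 1 experiment share its name in the titles. Their deviations from the group means correlated at 0.335 to 0.593 at day 17 and 0.109 to 0.257 at day 7 on array A, and less on B and C, down to 0.0035 on C at day 7. Alternatives were the deposited scale, other pseudocounts and filters, a fit of only the groups compared, experiment as a block, leaving out Exp106 or 1 sample at a time and, chosen after seeing the data, normalisation over only the arrays of a fit.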

Additional observations from a re-analysis of the deposited data

How the results depend on the processing

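With 3 samples in each group, each call rested on few arrays. The 1 member called between the day 17 fractions became 0 with intensities as deposited and in a fit of only the groups compared, and 2 without Exp106 and with a fixed replicate block without Exp106. The 2 members called in unsorted cells between the days became 1 with intensities as deposited. Without Exp106, members called went to 2 for GFP-negative cells between the days and to 1 for sorted against unsorted cells at day 17, and to 2 there with the fixed replicate block. With 1 sample left out, the counts were 0 to 2 between the day 17 fractions, 0 to 2 in unsorted cells and 0 to 1 for sorted against unsorted cells at day 17. Signs turned for values that did not pass: at day 7, GFP-positive minus GFP-negative was -0.14 for Gadd45a and -0.0881 for Cdkn1a as deposited. Mdm2 at day 17 (134102_at) was 0.16 without Exp106, with or without the block, and Mdm2 (98110_at) was 0.14 in GFP-positive cells between the days without Exp106. With 1 sample left out these 4 ran from -0.23 to 0.40, -0.13 to 0.27, -1.79 to 0.0668 and -0.81 to 0.14, and Gadd45b (102779_at) in sorted against unsorted cells at day 17 from -0.0221 to 0.74. Of the 85 fitted member differences, 26 were followed singly in this check. Among the other 59, 39 changed sign in at least 1 alternative and 0 passed in any. Over all probe sets, calls between the day 17 fractions were 285, with 24 to 1032 over the alternatives (1008 with a random block, 712 with a fixed one, 779 without Exp106). Calls between the days in GFP-positive cells were 1066 (443 to 2360), in GFP-negative cells 96 (17 to 387) and in unsorted cells 426 (144 to 930). Sorted against unsorted cells at day 17 gave 119 (1 to 941). For the change of the GFP difference there were 49 (0 to 223). The experiment block could not be fitted as a fixed term between the days, since each experiment lies in 1 day. With the random block, at a consensus correlation of 0.394 in the sorted fit, or the fixed block alone, no call of a member changed.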

Other observations

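The other gene lists held few changes. Of 31 cyclins, CDKs and proliferation genes tested in sorted cells, 1 was lower in GFP-positive cells at day 17 than at day 7, near the 3.17% called lower among all probe sets. It was the kinase gene Cdk4 (8043 ± 1126 at day 17 and 14973 ± 584 at day 7, SD, n = 3 each; log2 difference -0.90 ± 0.17, limma adjusted p = 0.0114). In unsorted cells, where 5.71% of all were called either way, 1 of 30 was higher at day 17, Tk1, thymidine kinase of the DNA synthesis phase (3423 ± 853 at day 17 and 1721 ± 42 at day 7; 0.95 ± 0.25, limma adjusted p = 0.0383). Of 18 immediate early and stress genes in sorted cells Ddit4, an inhibitor of mTORC1, was the 1 lower in GFP-positive cells at day 17 (-1.16 ± 0.27, limma adjusted p = 0.0314). In unsorted cells Atf3 was higher (1.07, limma adjusted p = 0.0462) and Ier2 lower (-0.96, limma adjusted p = 0.0439) at day 17, of 19 tested. The calls of Tk1, Ddit4, Atf3 and Ier2 were made in 15, 13, 8 and 11 of their 27, 22, 27 and 27 alternatives.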
